A study of Mus musculus with 17 samples.

Results

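Transcript levels of 10 metabolic regulators were examined in the hearts of 17 mice. They comprise the nuclear receptors Ppara, Ppard, Pparg, Rxra, Esrra and Esrrg, the coactivators Ppargc1a and Ppargc1b, the muscle regulator Perm1 and the mitochondrial transcription factor Tfam. Members were chosen by name, and the rows of the count table whose gene identifiers carry these 10 mouse symbols were taken from 31647 features. All samples came from young adult male C57BL/6J wild-type mice 5 d after surgery. In 9 mice the left anterior descending coronary artery (LAD) had been ligated permanently to induce a myocardial infarction (MI), and RNA came from the dissected infarct zone (IZ), while 8 mice had the same surgery without ligation and gave left ventricular (LV) tissue. Each library was 1 animal, and counts were single 3′ end tags per RNA molecule, so comparing levels between genes needed no correction for length. Such comparisons still assume that the 3′ end of each gene lay within its counted model, which was not tested.

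These genes form a control layer of energy metabolism in heart muscle. Peroxisome proliferator-activated receptors (PPARs) bind fatty acids and, paired with a retinoid X receptor (RXR), switch on genes of fatty acid uptake and oxidation, with PPARα best known from heart and liver and PPARγ from fat cells and macrophages. Estrogen-related receptors (ERRs) have no known natural hormone and act on mitochondrial genes together with the PGC-1 coactivators, which bind PPARs and ERRs but not DNA. PERM1 is induced by PGC-1 and ERRs in striated muscle, and TFAM packages mitochondrial DNA and takes part in its transcription.

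The regulators divided into a group that was far lower in the IZ and a group that was slightly lower. Perm1, Ppargc1a, Ppargc1b, Esrra and Esrrg fell to between 6.04% and 21.8% of their sham means, whereas Tfam, Rxra and Ppard fell to between 57.4% and 73.9%. Pparg, at 70.4% of sham, did not pass the test, and Ppara was at the limit of detection in the IZ. Of 9 members that passed the filter on low counts, 8 were called lower and 0 higher by the edgeR quasi-likelihood test at an adjusted p of 0.05. Among all 12301 genes tested, 69.5% were called, 33.1% lower and 36.3% higher. The 9 members had a median log2 fold change of -2.20, beside 0.05 for all tested genes, and 5 of them were called at least 2-fold lower, as were 18.3% of all genes.

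The tissue itself differed between the groups, and in bulk RNA fewer cells of a type and less RNA per cell cannot be told apart. Summed levels of 8 cardiomyocyte sarcomere genes ran from 53020 to 62912 CPM (counts relative to library sizes scaled by the trimmed mean of M values, TMM) in sham and from 2701 to 26076 CPM in the IZ. Macrophage markers ran from 398 to 573 CPM in sham and from 2194 to 5632 CPM in the IZ, and fibroblast markers from 1527 to 2953 CPM and from 12565 to 20499 CPM. All 8 sarcomere genes fell, all 8 macrophage genes rose, 7 of 8 fibroblast genes rose, and 4 of 8 endothelial genes fell. No cardiomyocyte marker was at 0 in any library, so heart muscle RNA was present throughout. IZ replicate 1 stood apart: its sarcomere sum was 26076 CPM against at most 6173 CPM in the other 8 IZ libraries, and mitochondrially encoded features took 19.5% of its counts against 4.22 to 6.78%. For single genes named here, values without this library are given where it moved a fold change or a mean by over 1.5 times. Medians of gene lists, those of the sarcomere genes included, are given only with this library, and their dependence on it was not tested.

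**Figure D1:**
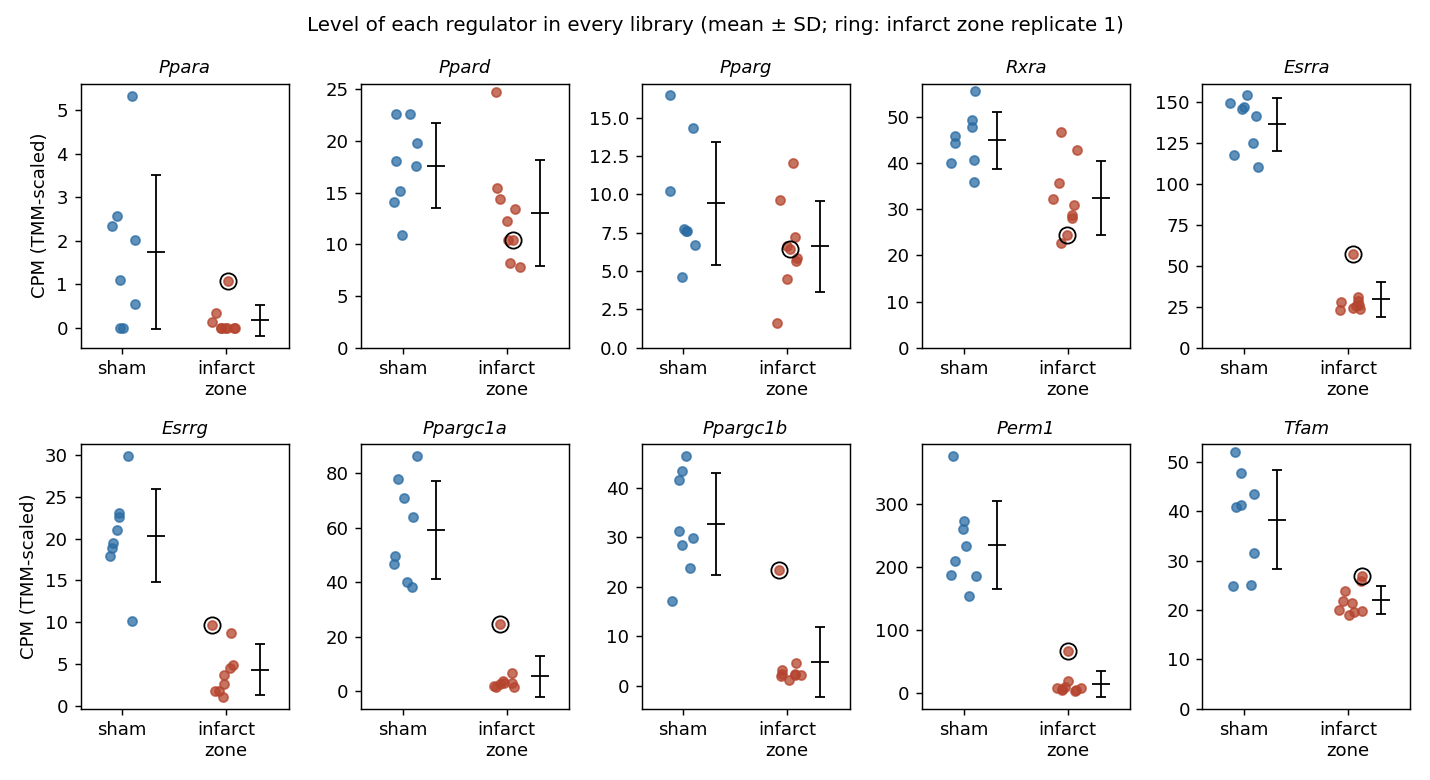
Level of each of the 10 regulators in CPM in every library, with 8 sham LV samples in blue and 9 IZ samples in red, and bars for mean ± SD; IZ replicate 1 is ringed. Perm1, Ppargc1a, Esrra and Esrrg show no overlap between the groups, while Ppard and Pparg overlap widely.

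The plot of levels by library shows the regulators on their own scales. In sham LV, Perm1 had the highest mean, followed by Esrra, Ppargc1a, Rxra, Tfam, Ppargc1b, Esrrg, Ppard, Pparg and Ppara. Perm1 exceeded Esrra in 8 of 8 sham libraries, and the step from Esrra to Ppargc1a was the only one between neighbours without overlapping libraries. Ppargc1a exceeded Rxra in 5 of 8 libraries and Rxra exceeded Tfam in 4 of 8, so the order in the middle of the list was not distinguishable from the spread between animals. In the IZ the order was Rxra, Esrra, Tfam, Perm1, Ppard, Pparg, Ppargc1a, Ppargc1b, Esrrg and Ppara, and only the last step was free of overlap. The last place of Ppara in both orders rests on counts that are not read as its true level. Several of the other IZ places rested on IZ replicate 1. Perm1 exceeded Ppard in 3 of 9 IZ libraries, and without replicate 1 the mean of Perm1 was 7.63 CPM against 13.3 CPM for Ppard. Without it the mean of Esrrg, 3.62 CPM, was also above those of Ppargc1a, 3.11 CPM, and Ppargc1b, 2.47 CPM.

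Promoter windows are shown for 4 members because all of them fell in the IZ and they stand for the coactivator, its muscle partner, its receptor and the mitochondrial effector. Each window holds the 250 bases before and the 50 bases after a RefSeq transcript start on GRCm38.p6, printed 5′ to 3′ on the strand of the gene. They lie at chr4:156215677-156215976 on the plus strand for Perm1, chr5:51567676-51567975 on the minus strand for Ppargc1a, chr19:6921759-6922058 on the minus strand for Esrra and chr10:71237995-71238294 on the minus strand for Tfam. Capitals mark a nuclear receptor half-site in Perm1, an NRF1 core in Esrra and an ETS site in Tfam, and the Ppargc1a window held none of the motifs searched.
Perm1: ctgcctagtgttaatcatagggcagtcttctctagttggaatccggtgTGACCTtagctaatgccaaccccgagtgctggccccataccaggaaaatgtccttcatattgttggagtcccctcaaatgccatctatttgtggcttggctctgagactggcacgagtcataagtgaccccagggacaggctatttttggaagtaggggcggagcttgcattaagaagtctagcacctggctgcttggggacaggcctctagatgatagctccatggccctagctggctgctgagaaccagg
Ppargc1a: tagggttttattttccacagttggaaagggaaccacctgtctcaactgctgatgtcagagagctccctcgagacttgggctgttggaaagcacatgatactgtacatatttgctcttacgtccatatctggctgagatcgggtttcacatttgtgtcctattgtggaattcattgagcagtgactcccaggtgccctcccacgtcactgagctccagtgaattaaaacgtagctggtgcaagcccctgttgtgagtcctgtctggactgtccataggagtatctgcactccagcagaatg
Esrra: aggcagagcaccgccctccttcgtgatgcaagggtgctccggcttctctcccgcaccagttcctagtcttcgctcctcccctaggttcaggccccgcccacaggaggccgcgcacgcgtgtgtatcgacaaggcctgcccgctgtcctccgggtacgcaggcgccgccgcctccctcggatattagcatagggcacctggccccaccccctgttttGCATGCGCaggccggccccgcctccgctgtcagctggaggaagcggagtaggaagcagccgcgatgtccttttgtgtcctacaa
Tfam: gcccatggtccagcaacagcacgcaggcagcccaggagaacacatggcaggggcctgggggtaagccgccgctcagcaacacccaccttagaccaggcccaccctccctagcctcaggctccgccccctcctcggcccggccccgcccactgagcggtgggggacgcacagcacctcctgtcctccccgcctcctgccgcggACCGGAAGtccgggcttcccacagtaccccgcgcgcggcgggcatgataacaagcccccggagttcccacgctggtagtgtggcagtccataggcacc

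The table of windows covered 9 of the 10 members with 15 windows, since some genes have several starts. Both strands were searched. The half-site AGGTCA, the hexamer that nuclear receptors recognise, was found in 4 of the 15 windows and in 16.3% of all 32851 windows. It lay at -202 from the start in Perm1, at -87 and -48 in Rxra, and at -28 and -9 in the 2 windows of Pparg that held it. The ERR element TNAAGGTCA, a half-site with a 5′ extension, and the PPAR response element, a direct repeat of the half-site with a spacer of 1 base, both contain AGGTCA. They were found in 0 of the 15 windows, and in 1.28% and 0.0396% of all windows. The NRF1 core GCGCATGC, found in 2.71% of all windows, was at -34 in Esrra and, as overlapping copies, at -31 and -29 in Ppara. The ETS site ACCGGAAG, found in 2.3% of all windows, was at -48 in Tfam. The cAMP response element TGACGTCA, found in 1.79% of all windows, was in none of the 15.

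Among the coactivators, Ppargc1a encodes PGC-1α, which is induced by energy demand and drives mitochondrial biogenesis. The gene lies at chr5:51454250-51567726 on mm10. In sham LV, Ppargc1a ranged from 38.4 to 86.2 CPM with a median of 56.7 CPM. In the IZ it ranged from 1.76 to 24.8 CPM with a median of 3.01 CPM. The groups did not overlap, and the highest IZ value was that of replicate 1. Means were 59.2 ± 18.0 CPM (SD, n = 8) and 5.51 ± 7.38 CPM (SD, n = 9), a log2 fold change of -3.55 (SE 0.40, edgeR adjusted p = 5.05e-08). Without IZ replicate 1 the IZ mean was 3.11 ± 1.63 CPM (SD, n = 8) and the log2 fold change -4.46.

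Ppargc1b encodes PGC-1β, the close homologue that shares most metabolic targets. Its sham levels ran from 17.1 to 46.4 CPM with a median of 30.5 CPM. Its IZ levels ran from 1.12 to 23.3 CPM with a median of 2.29 CPM. Only IZ replicate 1 lay within the sham range, and the other 8 IZ libraries were below every sham library. Ppargc1b fell by 2.83 on the log2 scale (SE 0.42, edgeR adjusted p = 2.54e-06), from 32.7 ± 10.2 CPM (SD, n = 8) to 4.78 ± 7.02 CPM (SD, n = 9). Without IZ replicate 1 the mean was 2.47 ± 1.03 CPM (SD, n = 8) and the log2 fold change -3.76.

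Perm1 encodes a striated muscle protein that links PGC-1 and ERR to their metabolic and contractile genes, and lies at chr4:156215868-156221307. Sham libraries held 153 to 375 CPM of Perm1 with a median of 221 CPM. IZ libraries held 3.33 to 66.4 CPM with a median of 6.98 CPM. All 9 IZ libraries were below all sham libraries, again with replicate 1 the highest. Perm1 had the lowest log2 fold change of the members at -4.11 (SE 0.47, edgeR adjusted p = 4.87e-08), and ranked 50 from the lowest of the 12301 tested genes. Its mean went from 234 ± 69.4 CPM (SD, n = 8) to 14.2 ± 20.1 CPM (SD, n = 9), or to 7.63 ± 4.72 CPM (SD, n = 8) and a log2 fold change of -5.16 without IZ replicate 1.

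Among the ERRs, Esrra encodes ERRα, the most widely expressed family member, at chr19:6910977-6921813. Sham values of Esrra were tight, from 110 to 154 CPM with a median of 143 CPM. IZ values were from 23.0 to 57.1 CPM with a median of 26.1 CPM. The groups were fully separate, and 8 of the 9 IZ libraries lay at or below 30.8 CPM. The means of 136 ± 16.3 CPM (SD, n = 8) and 29.6 ± 10.6 CPM (SD, n = 9) gave a log2 fold change of -2.20 (SE 0.15, edgeR adjusted p = 3.00e-11), which had the smallest p of the members. Trmt112 overlaps Esrra on the opposite strand and held 185 counts over the sham and 431 over the IZ libraries, beside 1959 and 943 counts for Esrra. Use of strand in the counting is not given in the sources used here, so reads of this pair may not have been fully separated.

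Esrrg encodes ERRγ, which is enriched in heart and other tissues of high energy use, and lies at chr1:187608791-188214885. In sham LV its level ran from 10.1 to 29.9 CPM with a median of 20.2 CPM. In the IZ it ran from 1.08 to 9.69 CPM with a median of 3.68 CPM. The lowest sham library, replicate 2, was still above the highest IZ library. Esrrg fell by 2.39 on the log2 scale (SE 0.32, edgeR adjusted p = 6.14e-07), from 20.4 ± 5.58 CPM (SD, n = 8) to 4.29 ± 3.06 CPM (SD, n = 9). With Perm1, Ppargc1a and Esrra it made 4 members whose IZ libraries were all below all sham libraries, a pattern found in 16.5% of the tested genes.

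Among the PPARs, Ppara had too few counts in these 3′ end libraries to be compared. The gene, at chr15:85734983-85802819, encodes the receptor that controls fatty acid oxidation. It had 0 to 14 counts per sham library, 28 in all, and 0 to 3 counts per IZ library, 5 in all. Mean levels were 1.74 CPM in sham and 0.172 CPM in the IZ, where 3 counts correspond to 1.77 CPM and 1.05 CPM. Both means were under that floor, so no fold change is given. Sham replicates 5 and 7 were above it, at 5 and 14 counts. Ppara did not pass the filter on low counts and was not tested in the main analysis. Only tags at 3′ ends within the counted gene model are included, and whether the 3′ end of Ppara lay within that model was not tested, so these counts are not read as its true level.

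Ppard encodes PPARδ, which is expressed in most tissues, at chr17:28232700-28301474. Its sham range was 10.9 to 22.6 CPM with a median of 17.8 CPM. Its IZ range was 7.85 to 24.7 CPM with a median of 12.2 CPM. The ranges overlapped, with 4 IZ libraries below all sham libraries and 1, replicate 7, above all of them. The means of 17.6 ± 4.10 CPM (SD, n = 8) and 13.0 ± 5.11 CPM (SD, n = 9) gave a log2 fold change of -0.45 (SE 0.20, edgeR adjusted p = 0.0491). The call was marginal, since the adjusted p was 0.0579 with DESeq2 and the call was lost when any of 12 libraries was left out in turn.

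Pparg encodes PPARγ, the receptor for fat cell differentiation that macrophages also use, at chr6:115360951-115490399. It ranged from 4.62 to 16.5 CPM in sham with a median of 7.68 CPM. In the IZ it ranged from 1.61 to 12.0 CPM with a median of 6.46 CPM. Only 2 of the 9 IZ libraries were below the sham range and none was above it. The means were 9.41 ± 4.03 CPM (SD, n = 8) and 6.62 ± 2.96 CPM (SD, n = 9), with a log2 fold change of -0.42 (SE 0.28, edgeR adjusted p = 0.190). Adipocyte markers varied among the IZ samples, with 1 to 7 of the 9 at 0 in a library. They summed to 45.4 to 88.1 CPM in sham and to 3.73 to 230 CPM in the IZ. The highest sum was in IZ replicate 2, where Pparg was at 9.65 CPM. The next highest IZ sum, 79.5 CPM, was in replicate 7, which had the lowest Pparg at 1.61 CPM. IZ replicate 9 had the highest IZ level of Pparg at 12.0 CPM, with an adipocyte sum of 13.1 CPM. Most of the sham sum was Cidea, while Adipoq was at most 2.02 CPM in sham, with a median of 0.364 CPM. In the IZ the median of Adipoq was 0 CPM and the highest value 21.1 CPM, in replicate 2.

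Rxra, the shared partner of the PPARs, lies at chr2:27676440-27762957. It had 35.9 to 55.6 CPM in sham with a median of 45.1 CPM, and 22.6 to 46.7 CPM in the IZ with a median of 30.9 CPM. Of the IZ libraries, 7 were below every sham library and the other two lay within the sham range. Rxra fell by 0.48 on the log2 scale (SE 0.14, edgeR adjusted p = 0.00414), from 45.0 ± 6.16 CPM (SD, n = 8) to 32.5 ± 8.05 CPM (SD, n = 9). IZ replicate 1 was not apart here, at 24.4 CPM.

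Tfam, at chr10:71225464-71238280, had sham values from 24.9 to 51.9 CPM with a median of 41.0 CPM. Its IZ values lay between 19.0 and 26.9 CPM with a median of 21.4 CPM. The IZ libraries were close to each other, and 7 of 9 were below the sham range. Tfam fell by 0.82 on the log2 scale (SE 0.14, edgeR adjusted p = 2.63e-05), from 38.3 ± 10.1 CPM (SD, n = 8) to 22.0 ± 2.87 CPM (SD, n = 9). The sham spread was wider, with replicates 1, 2 and 3 between 24.9 and 31.5 CPM and the other 5 libraries at 40.8 CPM or more.

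The smaller differences of Tfam, Rxra, Ppard and Pparg depended on scaling. When libraries were scaled by total counts alone, the median log2 fold change of all genes moved from 0.05 to 1.13, and these members were at 0.26, 0.60, 0.64 and 0.64. Relative to the median gene, the log2 fold changes with the main scaling and with total counts were -0.87 and -0.87 for Tfam, -0.54 and -0.53 for Rxra, -0.51 and -0.49 for Ppard, and -0.47 and -0.49 for Pparg. A change of scaling shifts all genes by nearly the same amount. These near-equal values therefore follow from the arithmetic and cannot decide which scaling is right. Perm1, Ppargc1a, Ppargc1b, Esrra and Esrrg fell under either scaling.

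**Figure D2:**
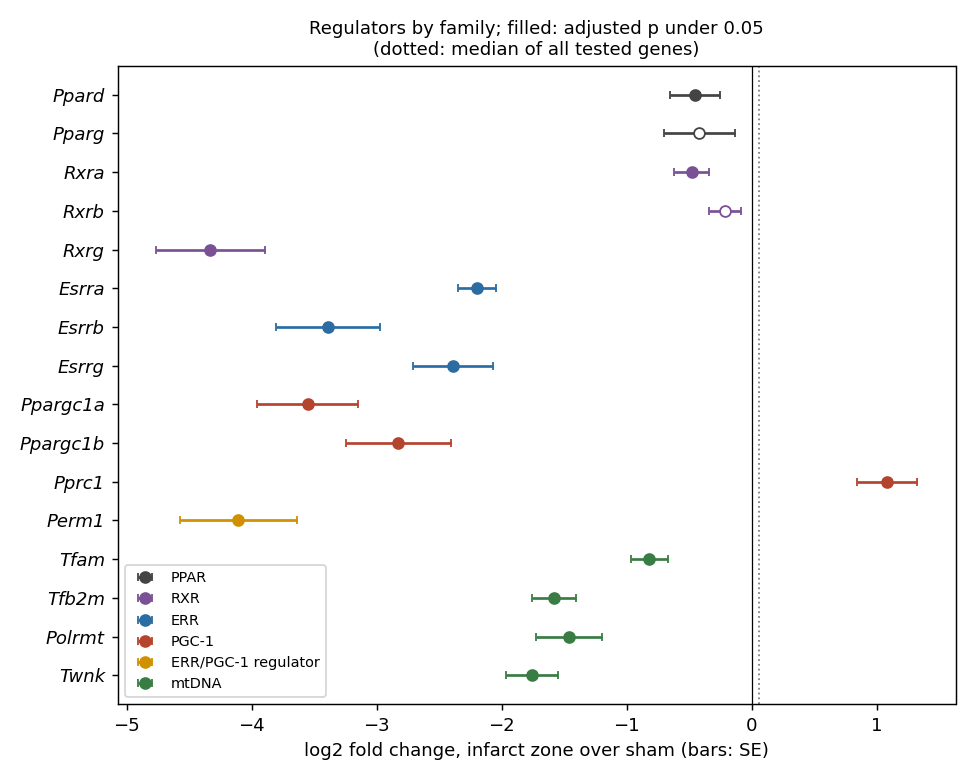
Log2 fold change of IZ over sham with SE for tested members and their relatives, coloured by family, with filled points for an edgeR adjusted p under 0.05 and a dotted line at the median of all tested genes (0.05). Rxrg lies at -4.33 while Rxra lies at -0.48, and Pprc1 lies at 1.08 while Ppargc1a lies at -3.55.

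Relatives within the same families differed in their response, as the plot of families shows. Of 24 partners and cofactors, which include the remaining RXR, ERR and PGC-1 family genes, corepressors, acetylases and the AMP-activated kinase, 3 rose, 11 fell and 10 did not pass the test, with a median log2 fold change of -0.25. Among all tested genes 36.3% were called higher and 33.1% lower. With total counts alone as the scaling, 17 of the partners were called higher and 5 lower, beside 9176 and 1534 of all 12301 genes. Rxrg, the RXR enriched in muscle, was the lowest of the list at -4.33 (SE 0.44, edgeR adjusted p = 7.99e-09). Its sham level was 48.0 ± 9.05 CPM (SD, n = 8), close to that of Rxra, and its IZ level was 2.76 ± 4.34 CPM (SD, n = 9), or 1.35 ± 1.11 CPM (SD, n = 8) without replicate 1, where the log2 fold change was -5.49. Rxrb, the widely expressed RXR, had a log2 fold change of -0.22 (SE 0.13, edgeR adjusted p = 0.144). Pprc1, the PGC-1-related coactivator of growth-induced mitochondrial genes, was the highest of the list. It rose by 1.08 on the log2 scale (SE 0.24, edgeR adjusted p = 3.41e-04), from 9.13 ± 2.68 CPM (SD, n = 8) to 19.5 ± 8.48 CPM (SD, n = 9), and 6 of 9 IZ libraries were above the sham range. Esrrb fell by 3.39 on the log2 scale (SE 0.41, edgeR adjusted p = 1.48e-07) from 13.1 ± 4.07 CPM (SD, n = 8) to 1.16 ± 1.48 CPM (SD, n = 9), or to 0.727 ± 0.723 CPM (SD, n = 8) without replicate 1. Rxrb and Esrrb were named after their values were seen, to complete the families.

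Ratios within a library put these differences side by side, 2 of them compared by an exact two-sided permutation test with p values adjusted over all 6 ratios computed. The log2 ratio of Ppargc1b to Ppargc1a differed by 0.62 between IZ and sham (exact adjusted p = 0.142) and that of Esrrg to Esrra by -0.14 (exact adjusted p = 0.675), so neither difference passed the test against the spread between animals. Another 4 ratios were chosen after the values had been seen and are given as geometric means. Their exact p values are not reported but entered the adjustment over the 6 ratios. The adjusted p of Ppargc1b to Ppargc1a therefore depended on them, and its unadjusted exact permutation p was 0.118. The ratio of Perm1 to Ppargc1a was 3.96 in sham and 2.26 in the IZ. The ratio of Rxrg to Rxra was 1.06 in sham and 0.0583 in the IZ, and that of Pprc1 to Ppargc1a was 0.161 and 4.59. The ratio of Esrrb to Esrra was 0.0936 in sham and 0.0365 in the IZ, a log2 difference of -1.36, which was -0.20 with a prior count of 5 in place of 1.

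**Figure D3:**
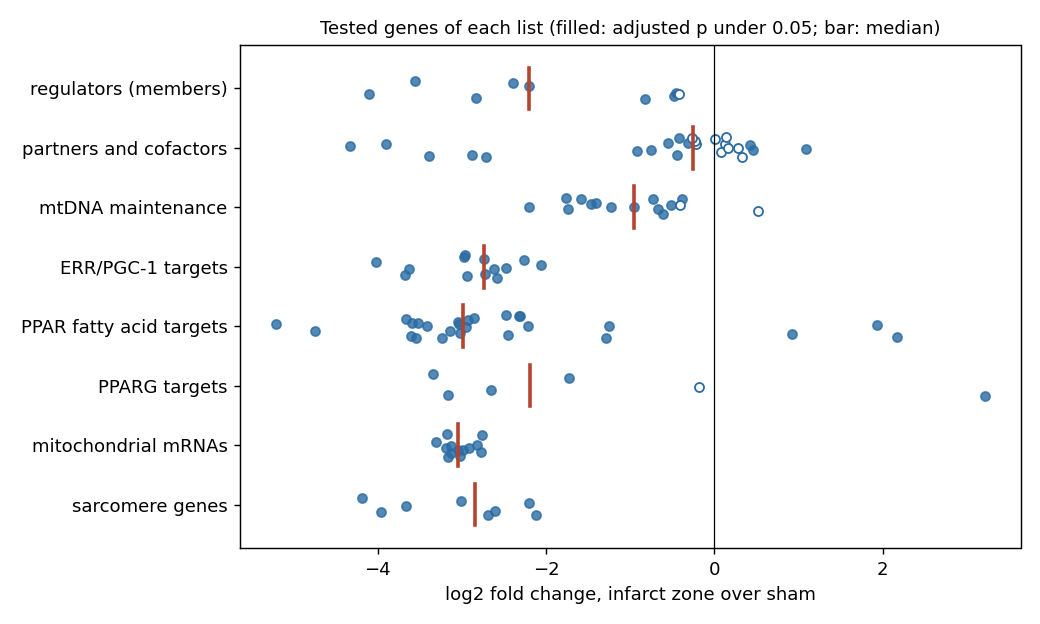
Log2 fold change of IZ over sham for every tested gene of each list, with filled points for an edgeR adjusted p under 0.05 and a red bar at the median of the list. The ERR and PGC-1 targets (median -2.74), mitochondrial mRNAs (median -3.04) and sarcomere genes (median -2.85) lie entirely below 0, while mitochondrial DNA maintenance genes (median -0.95) and partners (median -0.25) lie closer to it.

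Genes downstream of the receptors were read from lists of known targets, shown in the plot of lists. All 13 tested targets of ERR and PGC-1 were called lower, as were 33.1% of all tested genes. Most of these targets serve mitochondrial energy supply, and the list also holds mitochondrial sirtuins, the angiogenic factor Vegfa and the myokine precursor Fndc5. They had a median log2 fold change of -2.74, beside -2.85 for the 8 sarcomere genes, so the fall was not particular to these targets. Among the targets Ckmt2, the mitochondrial creatine kinase of muscle, was the lowest at -4.02 (SE 0.49, edgeR adjusted p = 1.37e-07), or -5.03 without IZ replicate 1, where the IZ mean went from 159 to 82.3 CPM. Sirt3, a mitochondrial deacetylase, was the least reduced at -2.06 (SE 0.22, edgeR adjusted p = 2.06e-08). Of 26 PPAR targets of fatty acid uptake, storage and oxidation, 23 fell and 3 rose, with a median of -2.98. The lowest was Ucp3, a mitochondrial uncoupling protein, at -5.22 (SE 0.49, edgeR adjusted p = 2.77e-09), with 31.2 ± 13.7 CPM (SD, n = 8) in sham and 0.850 ± 1.73 CPM (SD, n = 9) in the IZ. Without IZ replicate 1 the IZ mean of Ucp3 was 0.283 ± 0.360 CPM (SD, n = 8) and the fitted log2 fold change -6.39. Both IZ means lie under the 1.05 CPM that 3 counts correspond to, so the size of this fitted change depends on the prior count of the fit.

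The 3 PPAR targets that rose were Plin2, Angptl4 and Cpt1a. Plin2, which coats lipid droplets in many cell types, rose by 2.17 on the log2 scale (SE 0.18, edgeR adjusted p = 4.86e-10), from 38.5 ± 5.17 CPM (SD, n = 8) to 174 ± 51.5 CPM (SD, n = 9). Angptl4, a secreted inhibitor of lipoprotein lipase, rose by 1.93 (SE 0.29, edgeR adjusted p = 2.83e-06), and Cpt1a, the form of the fatty acid import enzyme typical of liver, rose by 0.92 (SE 0.15, edgeR adjusted p = 7.80e-06). In each of these 3 genes all 9 IZ libraries were above all sham libraries, as in 16.6% of tested genes. Macrophage and fibroblast marker sums were also higher in every IZ library than in any sham library, and their part in these values was not tested. Cpt1b, also on the list of PPAR targets, was matched to no feature and was not analysed.

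Among 11 PPARγ targets only 6 passed the filter, of which 4 fell and 1 rose, with a median of -2.19. Of all tested genes, 33.1% fell and 36.3% rose. Aqp7, a glycerol channel, was the lowest at -3.34 (SE 0.44, edgeR adjusted p = 4.17e-07), or -4.13 without IZ replicate 1, where its IZ mean went from 1.72 to 1.04 CPM. Cebpa, a transcription factor of fat and myeloid cells, rose by 3.22 on the log2 scale (SE 0.24, edgeR adjusted p = 9.93e-11), from 7.38 ± 2.44 CPM (SD, n = 8) to 68.5 ± 23.7 CPM (SD, n = 9).

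Tfam has its own downstream set, the genes of mitochondrial DNA itself. All 13 mitochondrially encoded mRNAs fell, with a median log2 fold change of -3.04 and a narrow range from -3.31 for mt-Co3, a subunit of cytochrome c oxidase, to -2.76 for mt-Atp6, a subunit of ATP synthase. The sarcomere genes had a median of -2.85. Both medians include IZ replicate 1, and the gap between them was not tested. Of 15 tested genes that copy, transcribe or stabilise mitochondrial DNA and RNA, 13 fell and 0 rose, with a median of -0.95. The shares of all tested genes that fell and rose were 33.1% and 36.3%. The lowest of the 15 was Lrpprc, which stabilises mitochondrial mRNAs, at -2.20 (SE 0.20, edgeR adjusted p = 2.00e-09). The highest was Rnaseh1, which removes RNA primers, at 0.52 (SE 0.30, edgeR adjusted p = 0.132). Tfam, at -0.82, lay near the median of this list, while Tfb2m at -1.58, Polrmt at -1.46 and Twnk at -1.76, the other core factors shown in the plot of families and named after their values were seen, were lower. The difference between Tfam and these genes was not tested.

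**Figure D4:**
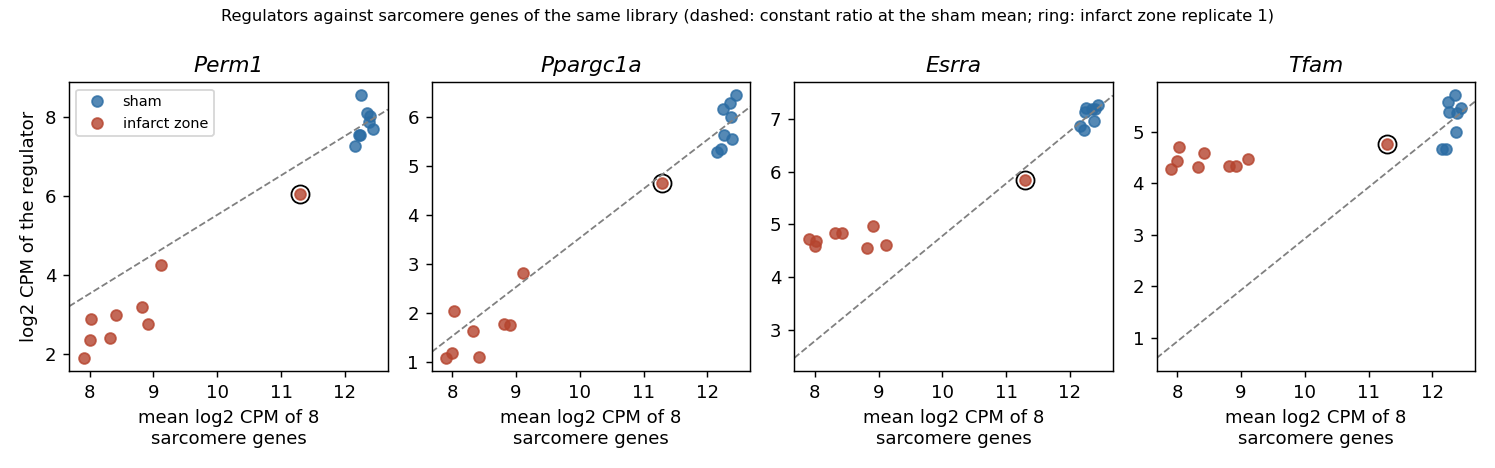
Log2 CPM of Perm1, Ppargc1a, Esrra and Tfam against the mean log2 CPM of 8 sarcomere genes in the same library, with sham in blue, IZ in red, IZ replicate 1 ringed, and a dashed line of constant ratio at the sham mean. Perm1 lies below the line in all 9 IZ libraries, Ppargc1a lies around it, and Esrra in 8 and Tfam in 9 of the 9 IZ libraries lie above it.

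To set the regulators against heart muscle RNA in the same library, libraries were also scaled to the 8 sarcomere genes. The mean log2 CPM of these genes was 12.3 ± 0.1 in sham (SD, n = 8) and 8.76 ± 1.04 in the IZ (SD, n = 9), or 8.44 ± 0.46 without replicate 1 (SD, n = 8). On this scale 97.1% of tested genes were called, 96.5% higher in the IZ and 0.618% lower, and the median log2 fold change was 3.81. Perm1 was among the few lower genes, at -1.15 (SE 0.33, edgeR adjusted p = 9.82e-04), and it stayed lower without IZ replicate 1, at -1.23. With Tnnt2 as the only reference Perm1 was at -2.16. On the main scale Tnnt2 fell less than most of the 8 genes, at -2.20, so this reference could only place Perm1 lower. Tnni3, at -4.19 beside -4.11 for Perm1 on the main scale, was not used alone. Leaving out IZ replicate 1 lowered the IZ mean of Tnni3 from 620 to 364 CPM, so its fold change also leaned on that library. Relative to the sarcomere mean, Perm1 was at -4.90 to -3.70 on the log2 scale in sham and at -6.16 to -4.87 in the IZ, so the groups touched at their edges.

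Ppargc1a and Ppargc1b did not differ from the sarcomere genes beyond the error of this comparison. Ppargc1a was at -0.44 (SE 0.36, edgeR adjusted p = 0.233) and Ppargc1b at 0.25 (SE 0.38, edgeR adjusted p = 0.520) on the sarcomere scale. Esrrg at 1.12 (SE 0.39, edgeR adjusted p = 0.00647) and Esrra at 1.42 (SE 0.33, edgeR adjusted p = 6.91e-05) were higher on it, as were Tfam at 2.94, Pparg at 3.25, Rxra at 3.33 and Ppard at 3.42. All of these lay below the median gene. The reference mattered: with Tnnt2 alone, Ppargc1a was at -1.43 (edgeR adjusted p = 6.49e-05), Ppargc1b at -0.78 (edgeR adjusted p = 0.0344), Esrra at 0.31 (edgeR adjusted p = 0.264) and Esrrg at 0.06 (edgeR adjusted p = 0.866). The 8 sarcomere genes themselves fell unequally, by log2 fold changes from -4.19 for Tnni3 to -2.12 for Actc1 on the main scale.

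Genes that varied most like each regulator among animals were found from log2 CPM after each group's mean was subtracted, over 17 libraries and 9315 genes. They are a description, since IZ replicate 1 weighs heavily in them. For Perm1 they were Mcrip2, S100a1 and Ivns1abp, each with a Pearson r of 0.96, and of 0.88 to 0.89 without that library. For Ppargc1a they were Ryr2, the calcium release channel of heart muscle (r = 0.95, or 0.83 without it), Etfdh (0.94 or 0.81) and Mfn2 (0.93 or 0.77). Ppargc1b was closest to Cd36, the fatty acid transporter, with r = 0.92 or 0.78, then to Gm49405 with 0.91 or 0.63 and Coro6 with 0.89 or 0.49. Esrra was closest to Grb14, Cisd1 and Gpsm1, with r = 0.94 each, or 0.71 to 0.77 without that library. For scale, 5% of all genes reached an r of 0.78 with Perm1, 0.78 with Ppargc1a, 0.68 with Ppargc1b and 0.76 with Esrra over the 17 libraries. The named genes were picked for the highest r, so passing these values follows from the choice. No such values were computed without IZ replicate 1.

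The other regulators leaned less on IZ replicate 1. Esrrg was closest to Rmdn1 (r = 0.90, or 0.86 without it), the mitochondrial peroxidase Prdx3 (0.86 or 0.82) and Cmbl (0.86 or 0.81). Tfam was closest to Tspan3, Fam20b and Gm10108, with r from 0.82 to 0.85. Rxra was closest to Gm5781, Gm8599 and the ribosomal protein gene Rpl13, with r from 0.85 to 0.86. Ppard was closest to Gm16286, the small nucleolar RNA host Snhg1 and the splicing factor Tra2a, with r from 0.78 to 0.81. Pparg and Ppara averaged under 10 CPM and were not searched.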

How the data were processed

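For these libraries the authors isolated DNase-treated total RNA, built 3′ end libraries by massive analysis of cDNA ends with molecular identifiers for removal of PCR duplicates, trimmed reads, mapped them to mm10 and counted them per gene. The submitters' processing notes name bcl2fastq, Bowtie2, HTSeq and DESeq2, with annotation release, strand use and handling of multiple mapping not given in the sources used here. The deposited values are raw counts without normalization, and 35 merged features of overlapping genes took 0.0919 to 0.2148% of them. Totals ran from 1237675 to 4738307 counts per library. All 17 columns were used, each a separate animal, and no library was a copy of another.

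Genes were tested here with edgeR 4.0.16 in R 4.3.3 (filterByExpr with a minimum count of 10, TMM factors 0.616 to 1.53, two-sided quasi-likelihood F-test without covariates, Benjamini-Hochberg adjustment over 12301 genes, threshold 0.05). Standard errors were derived from the F statistic. Log2 CPM used a prior count of 1. A level of 3 counts was taken as the floor, which covers counting error only. Sarcomere scaling set library sizes to the geometric mean CPM of 8 cardiomyocyte genes in the same test. Of the ratios, 2 were tested by exact permutation and 4 were added as descriptions, whose p values were used only in the adjustment. Another 3 planned ratios with Ppara were not computed because its mean levels were under the floor. Named genes were the members, the highest and lowest tested gene of each list, and the 3 genes most like each member at a mean of at least 10 CPM. Positions are from an annotation of GRCm38. Of the list genes, 2 were matched to no feature and not analysed here, Cpt1b and Myod1. The members and lists were chosen with earlier results of these data known. The labels name no batch.

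Alternatives were DESeq2 1.42.0 and its size factors, total counts, no filter, a mean of at least 50 counts, removal of mitochondrially encoded features, a replicate block and omission of each library. The procedure was tested on simulated data in which few genes changed, as many up as down. That setting is unlike these data and does not test the choice of scaling.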

Additional observations from a re-analysis of the deposited data

Results flagged for a closer look

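Of 30 groups of values checked (levels of members and log2 ratios, in sham or in the IZ), 8 held 1 library whose gap to its nearest neighbour was large for the range of the group, and chance alone flags about 1 in 20 groups. IZ replicate 1 accounted for 5 of these 8: it had 66.4 CPM of Perm1, 24.8 CPM of Ppargc1a, 23.3 CPM of Ppargc1b and 57.1 CPM of Esrra, the highest of the 9 IZ libraries in each case, and a log2 ratio of Pprc1 to Ppargc1a of -1.22, the lowest. This library also had the highest sarcomere sum and the highest mitochondrially encoded share of the IZ libraries. IZ replicate 7 had 24.7 CPM of Ppard, the highest of the 17 libraries. IZ replicate 5 had the lowest IZ log2 ratio of Ppargc1b to Ppargc1a, at -2.26, and sham replicate 3 had the lowest sham log2 ratio of Esrrb to Esrra, at -4.54.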

How the results depend on the processing

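Perm1, Ppargc1a, Ppargc1b, Esrra and Esrrg were called lower under every alternative that tested them, with 23 or 24 alternatives each and log2 fold changes from -5.16 to -3.19, -4.46 to -2.54, -3.76 to -1.84, -2.41 to -1.16 and -2.72 to -1.34. Total counts alone gave 5 members lower and 3 higher, turning Pparg (0.64), Ppard (0.64), Rxra (0.60) and Tfam (0.26), with 9176 genes called higher and 1534 lower in place of 4470 and 4074. It also gave 5 partners lower and 17 higher, 2 PPARγ targets higher, and 4 mitochondrial DNA maintenance genes lower and 5 higher, with Rnaseh1 among these. This scaling moved the median of all genes to 1.13. A mean of at least 50 counts left fewer genes to test (6734, of which 5239 were called). Of the members, only Perm1, Ppargc1a, Esrra, Rxra and Tfam were tested under it, and all 5 were called lower. This filter also gave 1 partner higher and 5 maintenance genes lower. PPARγ targets called higher numbered 2 with DESeq2 and 3 without a filter. Ppard lost its call with DESeq2 (-0.45), without a filter (-0.39) and with the replicate block (-0.47, adjusted p = 0.0531), and ran from -0.57 to -0.38 with adjusted p from 0.00673 to 0.110 as each library was left out. With Tnnt2 alone as reference, Ppargc1b reversed (-0.78), Ppargc1a passed the threshold (-1.43), and Esrra (0.31) and Esrrg (0.064) lost it. The log2 ratio of Ppargc1b to Ppargc1a was 0.66 with a prior count of 5 (exact permutation p = 0.0404) and 0.50 to 0.87 as each library was left out, passing the threshold without IZ replicate 5 (exact permutation p = 0.00824). These p values were not adjusted over the 6 ratios. The unadjusted exact permutation p of the main setting was 0.118. That of Esrrg to Esrra was 0.21 with a prior count of 5 and -0.34 to 0.031 as each library was left out, the highest without IZ replicate 6. That of Esrrb to Esrra was -0.20 with a prior count of 5. The cause of these changes was not tested. Same-numbered sham and IZ libraries came from different mice, and their deviations from the group means had correlations from -0.22 to 0.13. Whether same-numbered animals shared a batch was not tested. The replicate block called 8078 genes in place of 8544. Ppara had 5 counts over the 9 IZ libraries, and the cause was not tested. With other fits, Ppara had an adjusted p of 7.27e-04 (edgeR without a filter) and 0.0013 (DESeq2), and its fitted fold change at such counts is no bound.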
